A study of Rattus norvegicus with 6 samples.

Results

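The 8 genes described here encode the β subunits of the sodium-potassium pump (*Atp1b1*, *Atp1b2* and *Atp1b3*), small FXYD proteins that regulate it (*Fxyd1*, *Fxyd2*, *Fxyd4* and *Fxyd5*) and the α subunit of the nongastric hydrogen-potassium pump (*Atp12a*). They were chosen by name from the 17051 genes in the files, and the estimated read counts of each gene's transcripts were summed in each rat. RNA sequencing was performed on kidney tissue of 6 male Sprague Dawley rats, an outbred laboratory strain. The AL group (rats 61, 71 and 88) ate standard chow freely. The HD group (rats 64, 67 and 69) ate a hyperammonemic diet for 7 days, which was chow powder with an added amino acid mixture composed like hemoglobin, and which raises the load of nitrogen that the body must clear. Both groups were of the same strain and sex. The labels do not say which region of the kidney was taken for sequencing, and age was not given in the sources used here.

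The sodium-potassium pump, or Na,K-ATPase, sits in the basolateral membrane of every tubule segment and exports sodium in exchange for potassium, which drives the reabsorption of sodium and of much that travels with it. Its catalytic α subunit needs a β subunit to fold and to reach the membrane, and a tissue-specific FXYD protein tunes its affinity for sodium and potassium. Ammonium can take the place of potassium on the pump, and the nongastric hydrogen-potassium pump exchanges protons for potassium or ammonium in the distal nephron and the colon. The comparison of the diets asks here whether the transcripts of these subunits and regulators differed between rats with and without the nitrogen load.

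Total estimated counts ranged from 12499945 in HD rat 64 to 30466461 in HD rat 69. All 8 genes reached 30 counts in 1 rat or more, and so were among the 11553 genes tested. Markers of kidney tubules were abundant, with summed levels of 11657 to 19200 CPM for proximal tubule genes and 4654 to 7754 CPM for thick ascending limb genes. CPM is the count scaled to library size, with library sizes adjusted by the trimmed mean of M-values (TMM) method, and it compares 1 gene between rats. TPM, RSEM's transcript abundance, which also accounts for transcript length, was used to compare different genes within a rat.

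*Fxyd2* and *Atp1b1* were by far the most abundant of the 8 transcripts per length, and *Atp12a* the least. The mean over the 6 rats was 8163 TPM for *Fxyd2*, the γ subunit of the pump, and 2693 TPM for *Atp1b1*, the β subunit found along the whole nephron. It was 187 TPM for *Atp1b3*, a more widely expressed β subunit, and 142 TPM for *Fxyd4*, also called CHIF, which raises the pump's affinity for sodium in the collecting duct. The remaining 4 genes followed at 17.6 TPM for *Fxyd5* (dysadherin), 11.8 TPM for *Fxyd1* (phospholemman, the regulator in heart and skeletal muscle), 6.51 TPM for *Atp1b2* (a β subunit and adhesion molecule of glia) and 0.862 TPM for *Atp12a*. The ranges over the 6 rats were separate between *Fxyd2* and *Atp1b1*, *Atp1b1* and *Atp1b3*, *Fxyd4* and *Fxyd5*, and *Atp1b2* and *Atp12a*. The ranges of *Atp1b3* and *Fxyd4* overlapped, as did those of *Fxyd5* and *Fxyd1* and those of *Fxyd1* and *Atp1b2*, although *Atp1b3* exceeded *Fxyd4* in 6 of 6 rats and *Fxyd5* exceeded *Fxyd1* in 5 of 6. The length models of *Fxyd2* in the files are only 195 and 239 bases, so its TPM rests on a very short length.

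**Figure D1:**
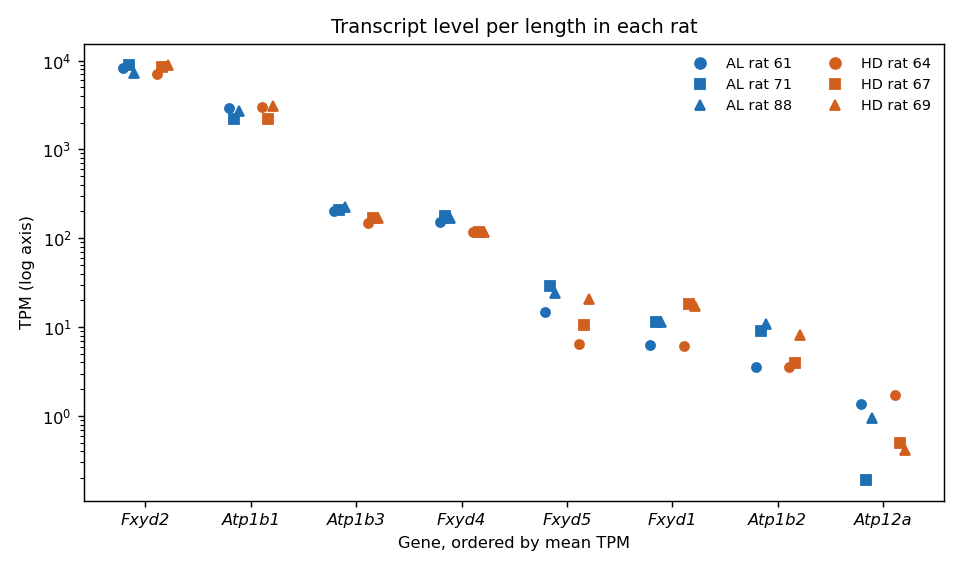
TPM of the 8 genes (log axis) in each rat, with AL rats in blue, HD rats in orange and a symbol for each rat, ordered by the mean over 6 rats. *Fxyd2* lay between 7023 and 8968 TPM in all 6 rats and *Atp12a* between 0.190 and 1.74 TPM.

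Among the 3 β subunits and among the 4 FXYD genes described here, 1 gene took most of the TPM in both groups. *Atp1b1* made up 90.9 to 95.2% of the summed TPM of the 3 β subunits, *Atp1b3* 4.69 to 8.67% and *Atp1b2* 0.113 to 0.377%. *Fxyd2* made up 97.3 to 98.3% of the summed TPM of the 4 FXYD genes, a share that rests on its very short length models. This sum leaves out other FXYD genes, such as *Fxyd6* at 82.2 to 125 TPM. The share of *Fxyd4* was 1.81, 1.94 and 2.26% in the AL rats and 1.65, 1.36 and 1.29% in the HD rats, so that every HD rat was below every AL rat.

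No gene of the 8 passed the adjusted threshold of 0.05 in edgeR's quasi-likelihood test, and 4 were higher and 4 lower in the HD group. Across the table edgeR called 0 of the 11553 genes tested (0%), and the smallest adjusted *P* value was 0.0980. Without adjustment, *Fxyd4* and *Atp1b3* had *P* values below 0.05, both lower in the HD group, and none of the 8 was higher at that threshold, beside 5.94% of all genes tested that were lower and 4.66% that were higher. In these same 2 genes the HD values all lay below the AL values, and in none of the 8 did they all lie above, beside 7.01% and 7.25% of all genes tested. DESeq2, the tool named in the methods of the study, was also run here. It called 1 of the 8, *Fxyd4*, beside 1.58% of all genes tested (0.771% called lower). The study's own run reported more differentially expressed genes than the 182 called here. The median log2 fold change was -0.13 over the 8 genes and 0.0067 over all genes tested. In bulk tissue, fewer cells of a type and less RNA per cell cannot be told apart in any of these values.

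**Figure D2:**
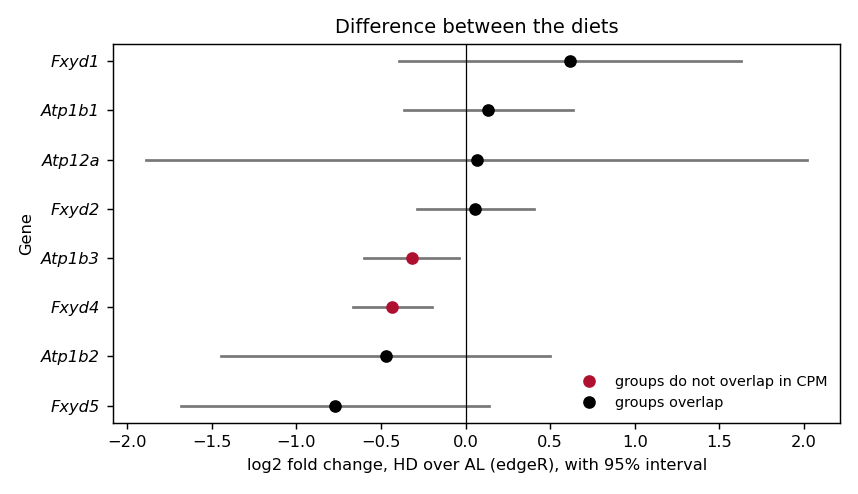
The log2 fold change of each gene, HD over AL, from edgeR's quasi-likelihood fit (points) with its 95% interval (lines), with genes whose groups did not overlap in red. The intervals of *Fxyd4* (-0.67 to -0.20) and *Atp1b3* (-0.60 to -0.04) lay below 0, and those of the other 6 genes included 0.

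*Fxyd4* was 25.9% lower in the kidneys of the HD group. The gene lies on the minus strand of chromosome 4 at chr4:215913322-215917183 (build rn5), with 8 exons and a transcript of 1362 bases. Its level was 143, 138 and 140.0 CPM in AL rats 61, 71 and 88 and 107, 109 and 96.3 CPM in HD rats 64, 67 and 69. The 3 AL rats lay close together, and all 3 HD rats were below them. The means were 140.1 ± 2.39 and 104 ± 6.61 CPM (SD, n = 3 each), a fold of 0.741 (95% interval 0.630 to 0.873) with a log2 fold change (log2FC, HD over AL) of -0.43 ± 0.10 (SE). In edgeR's quasi-likelihood test this had an unadjusted *P* value of 0.00315 and an adjusted *P* value of 0.368, and by *P* value the gene ranked 95th of 11553. The two-sided exact permutation test on log2(CPM + 0.5) gave *P* = 0.1, the smallest value that 3 against 3 rats allow. With all rats, DESeq2's adjusted *P* value was 0.0151. With 1 rat left out, DESeq2's adjusted *P* value was 0.0192 without HD rat 69 and 0.0312 without AL rat 61. It was between 0.0582 and 0.310 without AL rat 71, AL rat 88, HD rat 64 or HD rat 67, so the call was lost without any 1 of these 4 rats.

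The promoters of *Fxyd4* and *Atp1b3*, whose groups did not overlap, are given here from 250 bases before to 50 bases after the annotated start (RefSeq, build GRCr8, both minus strand). Capitals mark the GC box, searched as GGGCGG and its reverse CCGCCC. RefSeq windows were matched for 6 of the 8 genes, and *Atp1b1* and *Fxyd2* were not matched.
*Fxyd4*, chr4:152785996-152786295: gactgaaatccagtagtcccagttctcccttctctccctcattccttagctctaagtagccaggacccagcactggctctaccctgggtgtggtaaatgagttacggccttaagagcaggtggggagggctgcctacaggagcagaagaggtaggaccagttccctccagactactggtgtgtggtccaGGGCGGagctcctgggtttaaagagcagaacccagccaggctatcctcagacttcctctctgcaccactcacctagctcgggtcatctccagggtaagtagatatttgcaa
*Atp1b3*, chr8:105821102-105821401: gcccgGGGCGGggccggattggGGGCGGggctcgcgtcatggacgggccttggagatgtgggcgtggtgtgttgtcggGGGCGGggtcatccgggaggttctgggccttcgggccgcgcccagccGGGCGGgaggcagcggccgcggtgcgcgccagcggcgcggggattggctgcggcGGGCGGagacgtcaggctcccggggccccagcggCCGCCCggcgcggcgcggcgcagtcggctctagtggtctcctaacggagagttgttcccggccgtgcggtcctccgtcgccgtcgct
The *Fxyd4* window held 1 GC box and was 54.7% G and C. The *Atp1b3* window held 6 GC boxes and was 77.7% G and C, beside a median of 51.7% over 33469 rat promoter windows of the same length. The 6 matched genes had 8 windows. A GC box was found in 6 of these 8 windows, at least 1 for each gene, and in 33.1% of all windows. The CCAAT box (CCAAT or ATTGG) was found in 4 of the 8, those of *Atp1b3*, *Atp1b2* and *Atp12a*, and in 37.5% of all windows. The steroid receptor half-site (AGAACA or TGTTCT) was found in 1 of the 8, a window of *Atp12a*, and in 20.7% of all windows. These matches describe letters in the windows and do not show that a factor binds there.

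Markers of the collecting duct, where *Fxyd4* is known to act, differed in both directions. Of 9 principal cell markers tested, 3 were higher and 6 lower in the HD group, with unadjusted *P* values below 0.05 for 2 of the higher and 3 of the lower, and their median log2FC was -0.13. Their summed level was 1544 to 1740 CPM in the AL group and 1408 to 1796 CPM in the HD group. *Aqp2*, the vasopressin-regulated water channel, differed by a log2FC of -0.05 (adjusted *P* = 0.949, edgeR). *Aqp3*, its basolateral counterpart, was lower in every HD rat (-0.41, adjusted *P* = 0.432, edgeR), and *Hsd11b2*, which shields the mineralocorticoid receptor from glucocorticoids, was higher in every HD rat (0.64, adjusted *P* = 0.390, edgeR, and 0.0359, DESeq2). *Aqp4*, a further basolateral water channel, was at 118, 150 and 184 CPM in the AL rats and 78.6, 68.5 and 75.7 CPM in the HD rats. It was lower in every HD rat, as *Fxyd4* was (-1.02, adjusted *P* = 0.325, edgeR, and 7.13e-05, DESeq2), and it and *Hsd11b2* were the 2 principal cell markers called by DESeq2. Of 7 inner medulla markers 6 were lower, 5 of them at an unadjusted *P* value below 0.05 and 2 of them called by DESeq2, with a median of -1.11. Their summed level overlapped at 4131 to 4764 CPM in the AL group and 4464 to 5081 CPM in the HD group. *Aqp1*, a water channel also of the proximal tubule, made up most of that sum and was the 1 marker that was higher. It was at 3791 to 3910 CPM in the AL group and 4266 to 4754 CPM in the HD group. The sum therefore does not show the level of the 6 lower markers. Over all genes tested, 4.66% were higher and 5.94% lower at an unadjusted *P* value below 0.05 in edgeR's test, and DESeq2 called 1.58%. No marker of either list was at 0 in every rat. The part of these cell types in the *Fxyd4* difference was not tested.

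**Figure D3:**
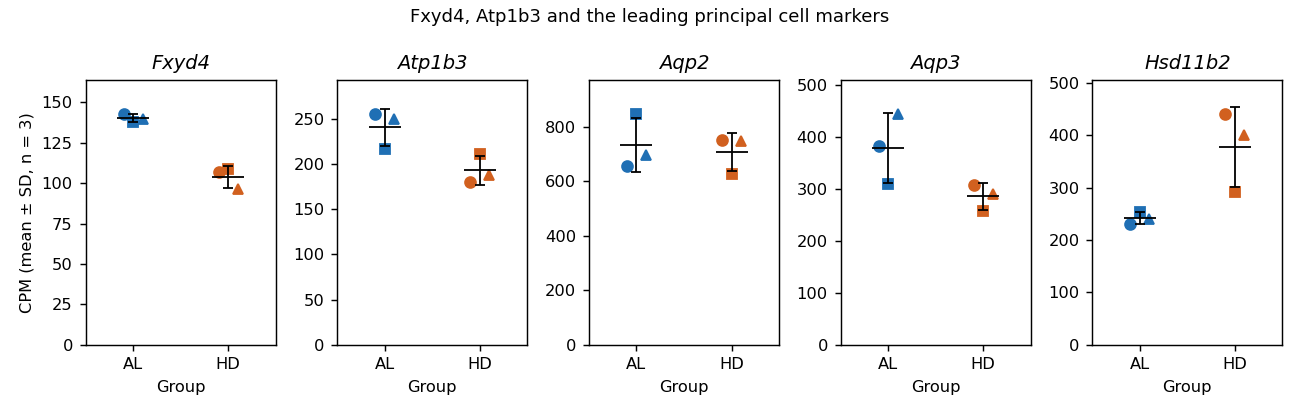
CPM of *Fxyd4*, *Atp1b3* and the 3 most abundant principal cell markers in each rat (circle, AL rat 61 or HD rat 64; square, AL rat 71 or HD rat 67; triangle, AL rat 88 or HD rat 69), with the mean and SD of 3 rats per group. *Fxyd4*, *Atp1b3* and *Aqp3* were lower and *Hsd11b2* higher in all 3 HD rats, and *Aqp2* overlapped between the groups.

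Among the β subunits, *Atp1b3* was lower in every HD rat, and *Atp1b1* and *Atp1b2* overlapped between the groups. *Atp1b3* lies on the minus strand of chromosome 8 at chr8:103638324-103669634 (rn5), with 7 exons and a transcript of 1818 bases. Its level was 255, 217 and 250 CPM in the AL rats and 180, 211 and 188 CPM in the HD rats, in the order of rats given above. The highest HD rat, rat 67, was just below the lowest AL rat, rat 71. The fold was 0.802 (95% interval 0.661 to 0.975) and the log2FC -0.32 (SE 0.12), with an unadjusted *P* value of 0.0313 and an adjusted *P* value of 0.426 in edgeR's test. The exact permutation test gave *P* = 0.1, and DESeq2 an adjusted *P* value of 0.243.

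*Atp1b1* (chr13:87621447-87641967, minus strand, rn5, 6 exons, 2203 bases) was at 4454, 2769 and 3722 CPM in the AL rats and 4450, 3355 and 4216 CPM in the HD rats. The highest values of the groups, in AL rat 61 and HD rat 64, were nearly the same, and rats 71 and 67 were the lowest of their groups. The means were 3648 ± 845 and 4007 ± 576 CPM (SD, n = 3 each), a log2FC of 0.14 (SE 0.21, adjusted *P* = 0.883, edgeR). The 95% interval of the fold, 0.777 to 1.55, does not show that the diets gave equal levels. The exons of *Atp1b1* share 183 bases with those of *Nme7* on the opposite strand, which was at 62.4 to 111 CPM, and the library kit does not mark strand. Without AL rat 71 the log2FC was -0.03.

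*Atp1b2* (chr10:55951260-55957495, minus strand, rn5, 7 exons, 2978 bases) was at 7.31, 15.6 and 19.8 CPM in the AL rats and 7.21, 8.14 and 15.3 CPM in the HD rats. Rats 61 and 64 were the lowest of their groups and the groups overlapped. Between the diets it differed by a log2FC of -0.47 (SE 0.42, adjusted *P* = 0.753, edgeR; exact permutation *P* = 0.4). It was -0.16 without AL rat 88 and -0.89 without HD rat 69.

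*Fxyd2*, the most abundant of the 8 per length, overlapped between the groups. The gene lies at chr8:48336166-48342640 (plus strand, rn5). Its level was 1069, 954 and 835 CPM in the AL rats and 878, 1088 and 1007 CPM in the HD rats. High and low rats occurred in both groups. The log2FC was 0.06 (SE 0.15, 95% interval -0.29 to 0.40), with an adjusted *P* value of 0.940 in edgeR's test. Its sign turned with the scaling, to -0.02 when only library size was used.

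The files hold 2 transcripts of *Fxyd2* with different first exons, and the one with the 63-base first exon (chr8:48338879-48338941) dominated in every rat. It took 95.2 to 98.0% of the gene's counts. The transcript with the 19-base first exon (chr8:48336166-48336184) took 3.21, 4.43 and 3.08% in the AL rats and 2.92, 2.04 and 4.77% in the HD rats. HD rats held both the lowest and the highest share. The log2FC values were 0.06 (SE 0.15) and -0.09 (SE 0.32) for the longer and the shorter transcript, with adjusted *P* values of 0.933 and 0.963 over 12191 transcripts in edgeR's test. Of these transcripts 0% passed the adjusted threshold, and 10% had an unadjusted *P* value below 0.05. How RSEM divides reads between transcripts is an estimate.

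**Figure D4:**
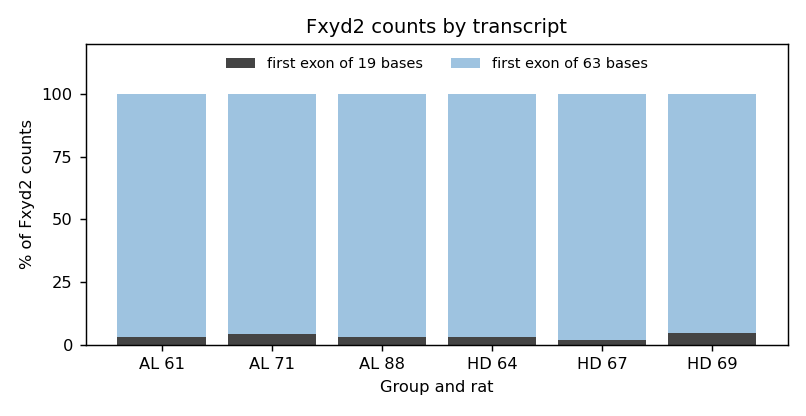
Share of *Fxyd2* counts (%) given to the transcript with the 63-base first exon (light) and the 19-base first exon (dark) in each rat. The dark share lay between 2.04 and 4.77% in all 6 rats.

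The segments that carry most of the pump showed no common direction beside *Fxyd2* and *Atp1b1*. All 8 thick ascending limb markers were lower in the HD group, 1 at an unadjusted *P* value below 0.05, with a median log2FC of -0.17 and a summed level of 6606 to 7754 CPM against 4654 to 7327 CPM. Of 9 proximal tubule markers tested 7 were higher, 3 at an unadjusted *P* value below 0.05, with a median of 0.41. At that threshold 4.66% of all genes tested were higher and 5.94% lower. None of these markers was at 0 in every rat, and the part of these segments in the levels of the pump genes was not tested.

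*Fxyd5* and *Fxyd1* were scarce, and rats 61 and 64 had the lowest level of both genes in their groups. *Fxyd5* (chr1:90620342-90629734, minus strand, rn5), which encodes a FXYD protein known for weakening cell adhesion, was at 8.10, 13.3 and 12.0 CPM in the AL rats and 3.48, 5.80 and 10.1 CPM in the HD rats. HD rats 64 and 67 were below every AL rat, and HD rat 69 was among them. The log2FC was -0.77 (SE 0.39), with an unadjusted *P* value of 0.0853 and an adjusted *P* value of 0.534 in edgeR's test, and the exact permutation test gave *P* = 0.2. DESeq2's adjusted *P* value was 0.460 with all rats. Without HD rat 69 the log2FC was -1.25, with an adjusted *P* value of 0.210 in edgeR and 0.0260 in DESeq2. Of the gene's 3 transcripts, the 826-base form took 62.3 to 100% of the counts (log2FC -0.89, SE 0.45, adjusted *P* = 0.563, edgeR). The 854-base form had counts in AL rat 71 and HD rats 67 and 69 alone (adjusted *P* = 0.983, edgeR), and the 930-base form was under 30 in every rat and was not tested.

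*Fxyd1* (chr1:90639292-90643313, minus strand, rn5, 8 exons, 533 bases) was at 2.14, 3.21 and 3.44 CPM in the AL rats and 2.04, 6.10 and 5.28 CPM in the HD rats. HD rats 67 and 69 were above every AL rat, and HD rat 64 was below them all. These levels rest on 24 to 165 counts. *Fxyd1* thus had a log2FC of 0.62 (SE 0.43), with an adjusted *P* value of 0.675 in edgeR's test and *P* = 0.4 in the exact permutation test. It was 0.34 to 0.95 with 1 rat left out.

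Markers of cells other than tubules also differed between the rats. All 9 leukocyte markers were lower in the HD group, 5 at an unadjusted *P* value below 0.05, with a median log2FC of -1.22 and a summed level of 321, 739 and 480 CPM in the AL rats and 235, 176 and 367 CPM in the HD rats. Of 8 endothelial markers 7 were lower, 1 at an unadjusted *P* value below 0.05, with a median of -0.50 and a summed level of 194, 546 and 559 CPM against 126, 200 and 403 CPM. As with *Fxyd5*, *Fxyd1* and *Atp1b2*, rats 61 and 64 had the lowest endothelial sum of their groups. All 5 fat cell markers were higher, 1 at an unadjusted *P* value below 0.05, with summed levels of 283, 171 and 187 CPM against 171, 413 and 368 CPM. HD rats 67 and 69 were the highest for both this sum and *Fxyd1*. Among the AL rats, rat 61 was the highest for this sum and the lowest for *Fxyd1*. *Cidec* led the sum, at 190, 128 and 134 CPM against 146, 173 and 184 CPM (log2FC 0.16, adjusted *P* = 0.828, edgeR). The 7 markers of skeletal and heart muscle, tissues known for *Fxyd1*, summed to 1.36 to 6.81 CPM, and 2 of them were tested. At an unadjusted *P* value below 0.05 in edgeR's test, 4.66% of all genes tested were higher and 5.94% lower. No marker of these 4 lists was at 0 in every rat, and their part in the differences of *Fxyd5* and *Fxyd1* was not tested.

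**Figure D5:**
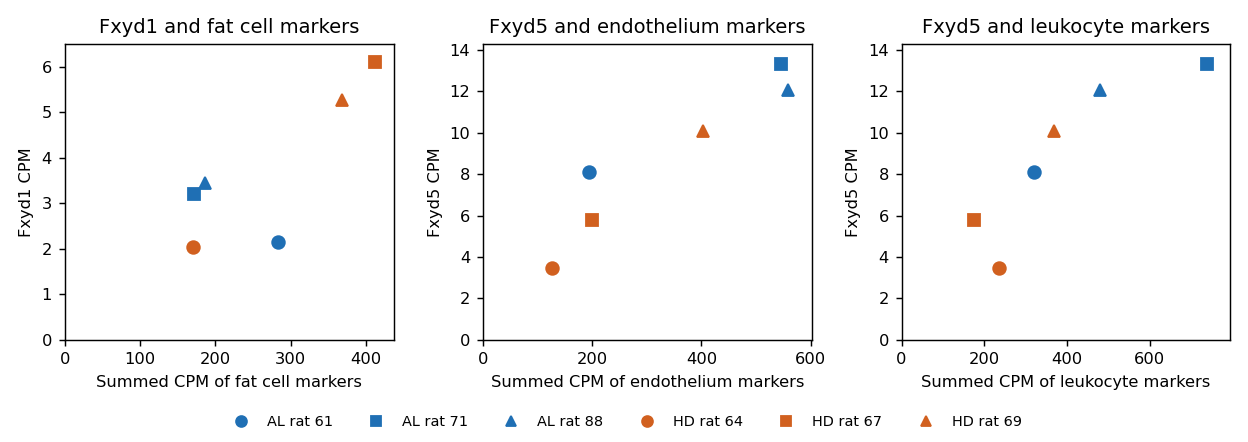
CPM of *Fxyd1* against the summed CPM of fat cell markers, and of *Fxyd5* against those of endothelium and leukocyte markers, 1 point per rat. HD rats 67 and 69 were highest on both axes of the *Fxyd1* plot, and AL rats 71 and 88 were highest on both axes of the *Fxyd5* plots, which were drawn after the values were seen.

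*Atp12a* (chr15:40419506-40444086, plus strand, rn5, 23 exons, 4019 bases) was the scarcest of the 8 per length, and its values rest on few counts. It had 49, 8 and 36 counts in the AL rats and 56, 28 and 32 counts in the HD rats, or 3.89, 0.443 and 2.38 CPM against 4.75, 1.40 and 1.02 CPM. Rats 61 and 64 were the highest of their groups, and the groups overlapped throughout. *Atp12a* had a log2FC of 0.07 (SE 0.84, adjusted *P* = 0.989, edgeR), and its 95% interval from -1.89 to 2.02 spans differences in both directions. It was -0.43 without AL rat 71 and -0.87 without HD rat 64.

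The other genes of the pump family did not pass the adjusted threshold either. Of 10 such genes outside the 8, 5 could be tested, 2 higher and 3 lower in the HD group, with no unadjusted *P* value below 0.05 in edgeR's test and 0 called by DESeq2. *Fxyd6* differed by a log2FC of -0.12 and *Atp1a4* by -0.32 (adjusted *P* = 0.886 and 0.862, edgeR). *Atp4b*, the β subunit of the gastric hydrogen-potassium pump, was at 0 in every rat.

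Genes that act on the pump or depend on it were higher in some cases and lower in others. Over 5 lists of such genes and of related pumps, 71 genes were tested. After adjustment edgeR called 0 of them, beside 0% of all genes tested, and DESeq2 called 5, beside 1.58%. In edgeR's test 17 had an unadjusted *P* value below 0.05, 9 higher and 8 lower, beside 10.6% of all genes tested. The lists were chosen with earlier results of these data known, so this comparison does not test for an excess. Of 24 pump regulators 11 were higher and 13 lower, 2 and 3 of them at an unadjusted *P* value below 0.05, with a median log2FC of -0.03. The most abundant were *Sptan1*, a membrane skeleton spectrin (0.02), *Hsd11b2* (0.64) and *Sgk1*, an aldosterone-induced kinase (0.04). Of 14 tubular sodium transport genes, most of them known for apical sodium entry, which feeds the pump, 11 were higher and 3 lower, 5 and 3 of them at an unadjusted *P* value below 0.05, with a median of 0.46. Of these, *Slc4a4* (1.94, 1 of the 5) and *Slc4a7* (-1.50, 1 of the 3) encode sodium bicarbonate cotransporters known from the basolateral side. Both were scarce. *Slc4a4* had means of 0.968 CPM in the AL group and 3.76 CPM in the HD group (adjusted *P* = 0.338, edgeR, and 0.0112, DESeq2). *Slc4a7* had means of 4.84 and 1.65 CPM (adjusted *P* = 0.453, edgeR, and 0.246, DESeq2). The log2FC was 0.70 for the phosphate cotransporter *Slc34a1* (adjusted *P* = 0.406, edgeR), -0.86 for *Slc12a1* of the thick ascending limb (adjusted *P* = 0.409, edgeR) and 2.93 for *Slc12a3* of the distal convoluted tubule (adjusted *P* = 0.338, edgeR, and 0.00473, DESeq2).

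Tubular potassium channels and potassium-chloride cotransporters, through which potassium brought in by the pump can leave the cell, were 6 higher and 6 lower of 12 tested, 2 of the higher at an unadjusted *P* value below 0.05, with a median log2FC of 0.03. The list joins basolateral genes with others such as *Kcnj1* and *Kcnma1*, which are known as apical channels. *Kcnj1*, *Kcnj16* and *Slc12a7* were the most abundant, at -0.05, 0.28 and -0.21 (adjusted *P* = 0.967, 0.536 and 0.740, edgeR). Of 16 other P-type ATPases tested, 8 were higher and 8 lower, 2 of the lower at an unadjusted *P* value below 0.05, with a median of -0.03. The most abundant were the phospholipid flippase *Atp11a* (0.05), the calcium pump *Atp2a2* (0.24) and the Golgi pump *Atp2c1* (-0.38), with adjusted *P* values of 0.939, 0.524 and 0.406 in edgeR's test. At an unadjusted *P* value below 0.05 in that test, 4.66% of all genes tested were higher and 5.94% lower. DESeq2 called 1 gene of the potassium list, higher, and 1 of the other P-type ATPases, lower, beside 1.58% of all genes tested.

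The genes whose levels most resembled each of the 8 across the 6 rats differed from gene to gene. Likeness was Pearson's correlation of log2(CPM + 0.5) over 9382 genes with a mean of at least 5 CPM, and the 6 points share their libraries. The closest to *Fxyd4* were *Pdcd4* (0.991), *RGD1309730* (0.987) and *Tmem165* (0.984), and to *Atp1b3* they were *Rev1* (0.998), *Ddx39a* (0.990) and *Zcchc4* (0.989). For *Atp1b1* they were *Slc25a32*, *Gtpbp5* and *Eif2b4*, and for *Atp1b2* *Cyp4a3*, *Anxa13* and *Lmo7*. For *Fxyd2* they were *Acsm5*, *Dtnbp1* and *Vegfb*, and for *Fxyd1* *Tm2d2*, *Gmppa* and *Chpf*. For *Fxyd5* they were *Anxa2*, *Ehbp1l1* and *Arhgef25*, and for *Atp12a* *Snrnp40*, *Ctgf* and *Agxt2l2*. No gene of the 8 was among the closest 3 of another. Genes with a correlation above 0.95 numbered 163 for *Fxyd5*, 83 for *Atp1b2*, 34 for *Atp1b3*, 17 for *Fxyd4*, 13 for *Atp12a*, 12 for *Atp1b1*, 10 for *Fxyd2* and 2 for *Fxyd1*.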

How the data were processed

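Poly(A)-selected kidney RNA of 6 rats was sequenced, 1 library per rat, and grouped by the diet in the labels. The authors quantified transcripts with RSEM (version 1.1.15 in the submitters' processing notes) on gene definitions of build rn5. The authors deposited for each transcript an estimated count, which is not normalized, a posterior mean of it and a TPM value, scaled to length and library. The exon coordinates and widths deposited beside them gave lengths and positions. FPKM values were not used here.

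Estimated counts were summed per gene and rounded. Genes that reached 30 counts in any rat were tested with edgeR 4.0.16 (R 4.3.3, quasi-likelihood, TMM, diet as the only factor), with Benjamini-Hochberg adjustment over all genes tested. The standard error is the absolute log2 fold change divided by the square root of F. Exact permutation tests used the 10 ways to divide the rats. Alternatives were DESeq2 1.42.0, other normalizations and filters, posterior mean counts, a robust fit, limma 3.58.1 on log2(TPM + 1) and leaving out each rat. DESeq2 with each rat left out was chosen after seeing the data. Chi-square values per degree of freedom between libraries were 24.2 to 81.3, so none was a repeat of another.

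Named genes were the 8 genes, the 3 most abundant tested genes of each pathway list, list genes past the adjusted threshold, the 3 genes most correlated with each of the 8, and the marker genes that lead a list's sum or were at 0. *Aqp4*, *Slc4a4*, *Slc4a7*, *Kcnma1* and *Atp4b* were named after their values were seen. Some genes of the pump family that this rule would name are not reported here. The 8 genes and the lists were chosen with earlier results of these data known. Depth was 12499945 to 30466461 counts, and unmarked strand limits genes that overlap.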

Additional observations from a re-analysis of the deposited data

How the results depend on the processing

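The direction of *Fxyd4*, *Atp1b3*, *Atp1b2*, *Fxyd5* and *Fxyd1* was the same in every alternative run. The methods of the study state that rats were assigned to the diets at random and describe no pairs, so the groups were compared unpaired. *Fxyd4* passed the adjusted threshold in DESeq2 (log2 fold change -0.44), and the edgeR and limma alternatives with all rats gave adjusted *P* values of 0.337 to 0.406. *Fxyd2* turned to -0.0186 with library size alone and to -0.0145 in limma, its longer transcript to -0.0136 and the potassium channel list median to -0.0555 with library size alone. DESeq2 called 182 genes and 1 of the 8, and with all genes above 0 edgeR called 2. By CPM per kilobase, *Fxyd2* made up 97.4% of the FXYD genes among the 8, against 97.9% by TPM. Both measures rest on the same short length models of *Fxyd2*, so their closeness does not test the effect of that length. Mean CPM, which is not divided by length, was 972 for *Fxyd2*, 122 for *Fxyd4*, 8.80 for *Fxyd5* and 3.70 for *Fxyd1*. *Atp12a* could not be tested under a filter of 10 counts in each rat.

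With 1 rat left out, the log2 fold change ranged from -0.0378 to 0.304 for *Atp1b1*, -0.0335 to 0.148 for *Fxyd2*, -0.47 to -0.37 for *Fxyd4*, -1.27 to -0.49 for *Fxyd5* and -0.89 to 0.74 for *Atp12a*. It ranged from -0.52 to 0.12 for the shorter and -0.0223 to 0.156 for the longer *Fxyd2* transcript, and in 5 fits from -0.36 to 6.56 for the 854-base *Fxyd5* transcript. The value of 6.56 was fitted without AL rat 71, the only AL rat with counts of it, and so measures no fold. edgeR called 0 to 4 genes, and 606 to 1744 had an unadjusted *P* value below 0.05, 1 to 2 of them among the 8 and 10 to 22 in the pathway lists. DESeq2 called 0 to 2 of the 8. List medians ranged from -0.28 to 0.21 (pump family), -0.0434 to 0.0842 (regulators), -0.309 to 0.0725 (other P-type ATPases) and -0.88 to 0.78 (smooth muscle). They kept their sign but moved by over 1.5 times for principal cells (-0.34 to -0.0312), inner medulla (-1.87 to -0.82), thick ascending limb (-0.37 to -0.0867), endothelium (-1.05 to -0.22) and leukocytes (-1.71 to -0.78). The same held for fat cells (0.625 to 1.89, lowest without HD rat 67), the potassium channel list (0.00481 to 0.229) and adrenal markers (-0.44 to -0.0987). It also held for skeletal and heart muscle, at 0.56 to 1.34 in the fits that tested it. The causes were not tested. Counts of 8 to 165 limit *Atp12a* and *Fxyd1*.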

Other observations

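Marker genes of further kidney cell types were summed in the same 6 rats. All 8 podocyte markers were higher in the HD group, 5 at an unadjusted *P* value below 0.05 in edgeR's test, with a median log2 fold change of 1.71 and summed levels of 68.9, 161 and 147 CPM in the AL rats and 222, 310 and 493 CPM in the HD rats. The summed distal convoluted tubule markers were 314, 323 and 317 CPM against 909, 388 and 708 CPM, with 2 of 4 tested genes higher. Of 9 intercalated cell markers 8 were higher, 1 in each direction at an unadjusted *P* value below 0.05, with sums of 1271 to 1461 CPM and 1258 to 1421 CPM. Of 7 smooth muscle and pericyte markers 4 were higher and 3 lower, and HD rat 69 had the highest sum, 343 CPM. Adrenal markers summed to 3.99 to 6.43 CPM with *Th* at 0 in every rat, and 1 was tested. Over all genes tested, 4.66% were higher and 5.94% lower at an unadjusted *P* value below 0.05 in edgeR's test.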
